A study of Rattus norvegicus with 15 samples.

Results

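The genes described here are the mitochondrial ribosomal RNA genes ENSRNOG00000030478 and ENSRNOG00000043866, 2 of the 30560 rat gene identifiers counted. They were chosen by their share of gene counts, since no other pair had a higher mean in input, and are described as the genes of the 12S and 16S RNAs. The count files hold no gene names and no sequence, so neither this naming nor which identifier is 12S and which is 16S was checked against the data. The counts come from primary oligodendrocytes of newborn Sprague-Dawley rats, matured from precursors of the forebrain cortex for 3 days in defined medium. The study set RNA co-precipitated with the RNA-binding protein hnRNP A2 beside total cell RNA and a control precipitation, with and without oligomeric amyloid-β. There were 5 groups of 3 libraries: input from control cultures, input from amyloid-β cultures, an hnRNP A2 immunoprecipitation (IP) from each, and an IgG immunoprecipitation labelled as a pool of both treatments. The deposited IgG files carry the mark of amyloid-β in their names, and the labels were followed. No dose or time of the amyloid-β on the cells is given in the sources used here. Without gene names the cell type could not be checked against its markers.

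Mitochondrial ribosomes make the proteins encoded in the organelle's own DNA. Their small subunit is built on the 12S RNA and their large subunit on the 16S RNA. Both RNAs are transcribed from the mitochondrial genome as neighbours on a long precursor, are released from it by cleavage at the transfer RNA between them, and work inside the organelle. hnRNP A2 is known as a protein of the nucleus and cytoplasm that binds messenger RNA, in oligodendrocytes also that of myelin proteins during transport. Copies of mitochondrial sequence lie in nuclear chromosomes of mammals, and reads that match more than 1 place are not among the gene counts. The kit named in the labels makes libraries from total RNA, and kits of this type remove ribosomal cDNA before sequencing. The counts are thus of RNA that was left after any such step, which was not measured here.

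Input libraries had from 14773400 to 25751522 gene counts each, and hnRNP A2 libraries from 28056346 to 33168494. IgG replicates 2, 3 and 4 had 81463, 4096829 and 1895870. The series' design text calls the immunoprecipitation replicates biological and does not say this of input, so p-values measure the spread between these libraries, which for input may be technical. The shallowest library still held 1051 counts of ENSRNOG00000030478 and 842 of ENSRNOG00000043866. The 95% Wilson interval of the pair's share in that library ran from 2.22% to 2.43%, and in every other library it was at most 0.0432 percentage points wide. These intervals cover counting error only. Counting error was therefore small against the differences between libraries described next.

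In input, the pair took the first 2 ranks among all genes in each of the 6 libraries. In control input the 2 genes together made up 34.0%, 15.4% and 23.4% of gene counts in replicates 2, 3 and 4. In amyloid-β input they made up 21.2%, 12.2% and 18.8%. Replicate 2 was the highest and replicate 3 the lowest in both treatments, and the treatments overlapped. In bulk libraries such as these, a share cannot tell more of the RNA per cell from more cells that hold it.

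Each gene contributed about as much as the other in input. ENSRNOG00000030478 took 17.0%, 7.62% and 11.7% of gene counts in control input replicates 2, 3 and 4, and 11.7%, 5.74% and 9.28% in the amyloid-β ones. ENSRNOG00000043866 took 16.9%, 7.76% and 11.7% in control input and 9.50%, 6.42% and 9.52% in amyloid-β input. Averaged over both treatments, the former had 10.5% ± 3.95 (SD, n = 6) and the latter 10.3% ± 3.71 (SD, n = 6).

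In both kinds of precipitate the pair was a minor part of the library. In the control hnRNP A2 IP it made up 1.37%, 1.38% and 1.63% of gene counts in replicates 2, 3 and 4, and in the amyloid-β hnRNP A2 IP 1.80%, 1.44% and 1.78%. In the IgG precipitation it made up 2.32%, 0.834% and 1.69%. The hnRNP A2 libraries lay close together, whereas the IgG libraries spread on both sides of all of them. The lowest input library still had 6.76 times the share of the highest hnRNP A2 library and 5.23 times that of the highest IgG library. These gaps between kinds of library were known when the genes were taken up and are given as a description, with no test.

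**Figure D1:**
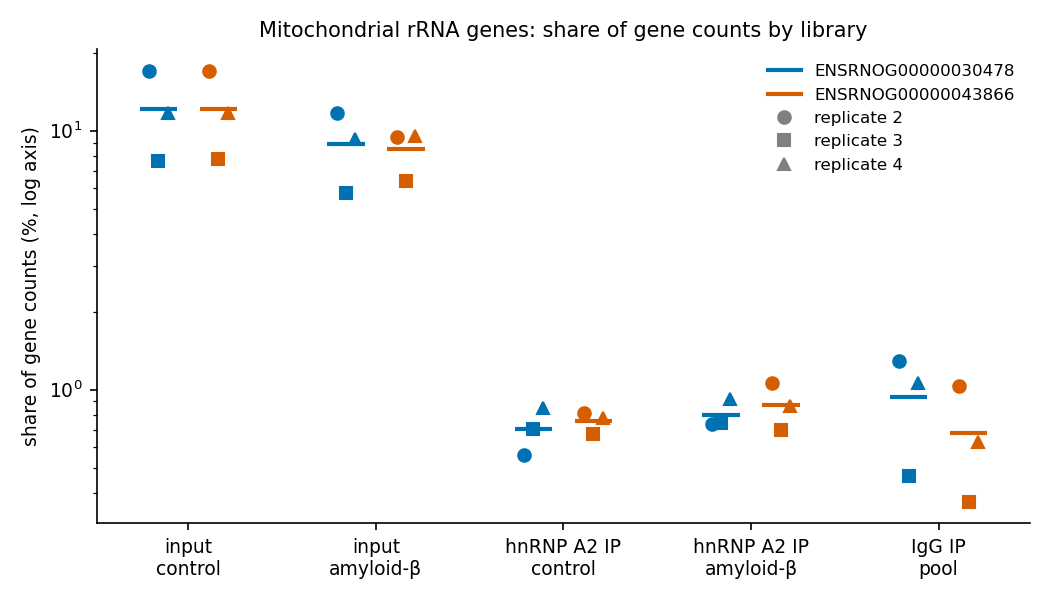
Share of gene counts (percent, log axis) of each rRNA gene in each of the 15 libraries, by group; point shape gives the replicate number and the bar the mean of 3 libraries. Both genes lie at 5.74% or more in all input libraries and at 1.29% or less in all hnRNP A2 and IgG libraries.

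Both genes remained abundant in the precipitates. ENSRNOG00000030478 took 0.558%, 0.704% and 0.853% of gene counts in the control hnRNP A2 IP and 0.734%, 0.745% and 0.916% in the amyloid-β one. ENSRNOG00000043866 took 0.815%, 0.675% and 0.778% in the control hnRNP A2 IP and 1.06%, 0.698% and 0.865% in the amyloid-β one. Their ranks among all genes were between 2 and 5 in the hnRNP A2 libraries. In the IgG libraries ENSRNOG00000030478 took 1.29%, 0.465% and 1.06% and ranked 4 or 5, while ENSRNOG00000043866 took 1.03%, 0.369% and 0.629% and ranked from 7 to 9.

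Ordered by the mean share of the pair, the groups were control input with 24.3% ± 9.33, amyloid-β input with 17.4% ± 4.67, amyloid-β hnRNP A2 IP with 1.67% ± 0.200, IgG with 1.61% ± 0.747 and control hnRNP A2 IP with 1.46% ± 0.147 (SD, n = 3 each). By these SDs, which leave the pairing by replicate number aside, the step from amyloid-β input to amyloid-β hnRNP A2 IP was the only one between neighbours that was larger than their spread. Values by pair for the treatments are given with the amyloid-β comparison. Of aligned records, 55.7% ± 7.04 (SD, n = 6) of those in input matched several places, against 18.9% ± 5.55 (SD, n = 6) with hnRNP A2 and 51.8% ± 25.2 (SD, n = 3) with IgG. IgG replicates 2 and 4 had 75.7% and 54.3%, within or above the input libraries' range of 46.8% to 67.2%. IgG replicate 3 had 25.5%, within the hnRNP A2 libraries' range of 13.9% to 28.4%, and also the lowest rRNA share of the IgG libraries. The part of such records in the rRNA shares was not tested.

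Each hnRNP A2 library could be set against the input of the same treatment and replicate number. In control cultures the input share of the pair was 24.8, 11.1 and 14.4 times that of the hnRNP A2 IP in replicates 2, 3 and 4. In amyloid-β cultures it was 11.8, 8.43 and 10.6 times. The gap was narrower with amyloid-β in each of the 3 replicate numbers, and the treatments overlapped, with 16.8 ± 7.11 (SD, n = 3) against 10.3 ± 1.69 (SD, n = 3).

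The 2 genes also accounted for most of the concentration of input reads in a few genes. The 10 most abundant genes held 30.8% ± 8.16 (SD, n = 6) of input gene counts, and the pair among them held 20.8% ± 7.60 (SD, n = 6) of all input gene counts. With the pair set aside, the next 10 genes of each library held 13.7% ± 3.71 (SD, n = 6) of the remaining counts of input libraries and 6.68% ± 1.14 (SD, n = 6) of those of hnRNP A2 libraries. The lowest input library had 10.1% by this measure and the highest hnRNP A2 library 7.63%. The remaining genes were thus also more concentrated in each input library than in each hnRNP A2 library, by a smaller factor than the pair. In IgG the corresponding value was 10.6% ± 4.09 (SD, n = 3), which overlapped both.

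**Figure D2:**
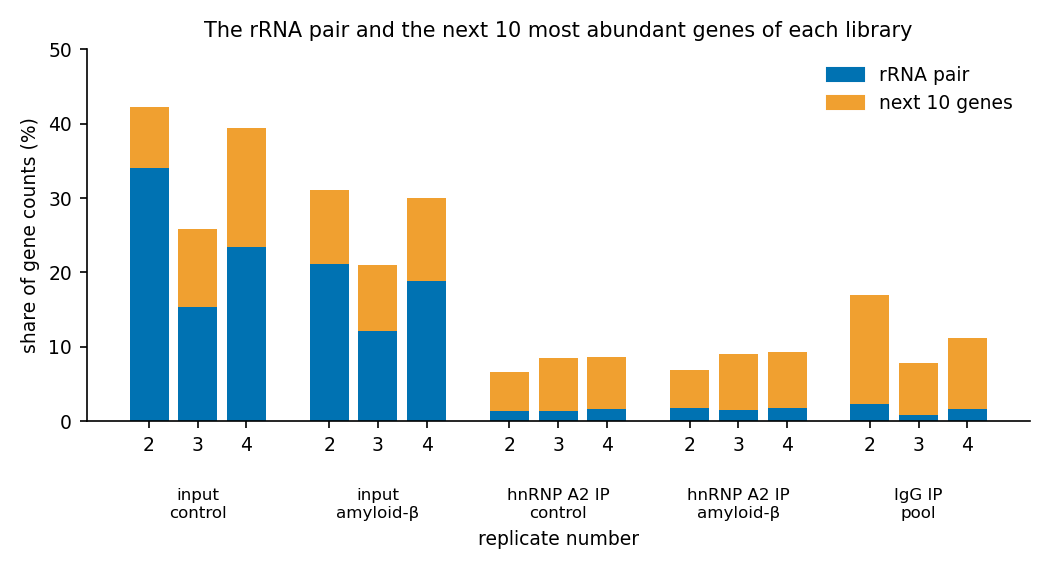
Stacked bars of the share of gene counts (percent) held by the rRNA pair and by the next 10 most abundant genes of each of the 15 libraries, by group and replicate number. The pair takes between 12.2% and 34.0% in the input libraries and between 0.834% and 2.32% in the precipitates.

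Set beside all genes, the rRNA genes were at the low end of the hnRNP A2 IP relative to input. On the scale of edgeR with trimmed mean of M values (TMM) scaling, the log2 difference of the hnRNP A2 IP from input was -4.38 (SE 0.33) for ENSRNOG00000030478 and -4.24 (SE 0.30) for ENSRNOG00000043866. These values are a description, since the gap was known beforehand. Of 15303 genes tested, 27 had a lower value than the first and 32 a lower value than the second. CPM stands for counts scaled to a common library total. Of the other genes, 91 had at least 1000 CPM in input. Their median difference was -1.11, and 4 of the 91 were lower than both rRNA genes. Genes picked for a high input level can lean to a negative difference by that choice alone. Its part in this median was not tested. With library sizes alone as the scaling, the median of all genes moved from 0.01 to 0.57 and the rRNA genes to -3.79 and -3.64, so their distance from the median changed little.

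In the IgG precipitate the rRNA genes were also lower than in input. The log2 difference from input was -4.01 (SE 0.55) for ENSRNOG00000030478 and -4.46 (SE 0.54) for ENSRNOG00000043866, again as a description. Of 14205 genes tested, 97 and 81 had lower values, and DESeq2 placed 21 and 8 lower. These ranks rested on single libraries, with 664 and 630 genes lower without IgG replicate 3, 273 and 265 without IgG replicate 4, and 149 and 135 without IgG replicate 2, while the log2 differences themselves stayed between -4.86 and -3.78 with single libraries left out. The comparisons of hnRNP A2 and of IgG with input share the input libraries, so their likeness is no separate result.

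**Figure D3:**
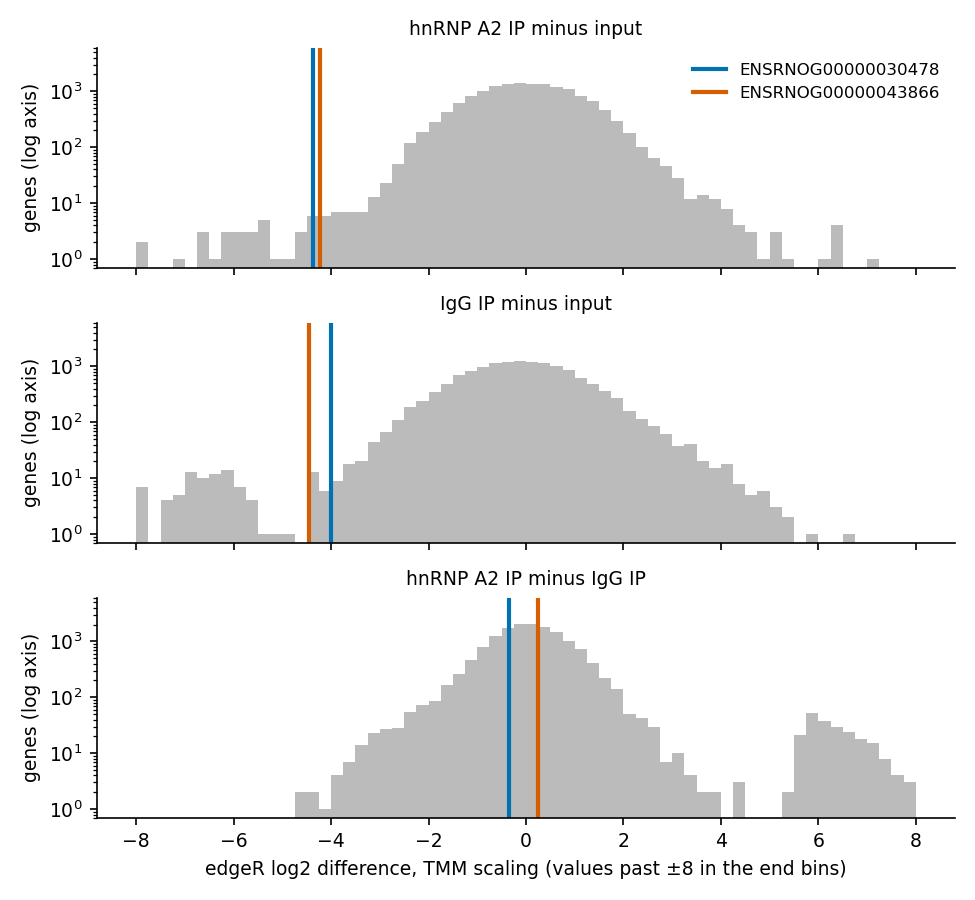
Distribution over all genes tested of the edgeR log2 difference (x axis; number of genes per bin on a log y axis) for hnRNP A2 IP minus input, IgG minus input and hnRNP A2 IP minus IgG, with the rRNA genes as vertical lines. The lines lie between -4.46 and -4.01 in the upper panels and at -0.34 and 0.25 in the lowest, between the lower and upper quartiles of all genes at -0.42 and 0.58.

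The comparison with IgG asks whether a gene's level, relative to the other genes of its library, differed between the hnRNP A2 antibody and IgG. Each library is scaled to its own total, so the amounts of RNA recovered were not compared. A difference near 0 therefore does not say that no more rRNA was recovered than with IgG. Neither rRNA gene passed in this comparison, and their estimates had opposite signs. ENSRNOG00000030478 had a log2 difference of -0.34 (95% confidence interval -1.04 to 0.35, edgeR adjusted p = 0.506) and ENSRNOG00000043866 one of 0.25 (95% confidence interval -0.40 to 0.90, edgeR adjusted p = 0.623). edgeR called 2084 of 15304 genes in this comparison, or 13.6%, and a count of 0 among 2 rRNA genes does not stand apart from that background. The intervals do not exclude differences of -1.04 and 0.90 on the log2 scale. With library sizes alone the median of all genes moved from 0.07 to 0.18 and the rRNA genes were at -0.32 and 0.27. Both estimates depended on single IgG libraries. ENSRNOG00000030478 was at -0.64 without IgG replicate 3, at -0.13 without replicate 2 and at -0.15 without replicate 4. ENSRNOG00000043866 was at -0.01 without IgG replicate 3 and at 0.59 without replicate 2. The number of genes called was 21 without IgG replicate 4. With the replicate number as a block the count was 5392 genes, and neither rRNA gene passed (edgeR adjusted p = 0.310 and 0.222).

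By replicate number, the hnRNP A2 libraries were both above and below IgG. The pair's share in the control hnRNP A2 IP was 0.591, 1.65 and 0.967 times that of IgG in replicates 2, 3 and 4, and in the amyloid-β one 0.774, 1.73 and 1.06 times. Relative to all records of a file, with unaligned and multiply aligned ones included, the order differed. On that base the pair took 0.499% ± 0.0513 (SD, n = 6) in the hnRNP A2 IP and 0.259% ± 0.0563 (SD, n = 3) in IgG, and 4.19% ± 2.07 (SD, n = 6) in input. The records that name no gene made up 68.2% to 91.4% of the IgG files and 65.5% to 71.7% of the hnRNP A2 files. Each IgG library was below each hnRNP A2 library on that base, whereas they overlapped as shares of gene counts.

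The ratio of the 2 rRNA genes within a library does not depend on scaling or on the other genes. It is a ratio of read counts, not of molecules, because the genes' lengths were not used. The count of ENSRNOG00000043866 over that of ENSRNOG00000030478 was 0.994, 1.02 and 0.999 in control input replicates 2, 3 and 4, and 0.814, 1.12 and 1.03 in amyloid-β input. In control input the 2 genes thus had nearly equal counts in all 3 libraries, while amyloid-β replicates 2 and 3 departed from this in opposite directions.

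In the hnRNP A2 IP, replicate 2 stood apart from replicates 3 and 4 in both treatments. The ratio was 1.46 in control and 1.45 in amyloid-β replicate 2, 0.958 and 0.937 in replicate 3, and 0.912 and 0.944 in replicate 4, which overlapped replicate 3. Replicate 2 was the only number with more counts of ENSRNOG00000043866 in the hnRNP A2 IP. Its input libraries had ratios of 0.994 and 0.814, so this excess was not seen in the matching input. In the IgG libraries the ratio was 0.801, 0.794 and 0.595, with fewer counts of ENSRNOG00000043866 in each. On the log2 scale the counting error of the ratio was at most 0.0667, in IgG replicate 2, and at most 0.0167 elsewhere.

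Each of the 6 hnRNP A2 libraries had a higher ratio than each of the 3 IgG libraries. The mean log2 ratio was 0.12 ± 0.33 (SD, n = 6) with hnRNP A2 and -0.47 ± 0.24 (SD, n = 3) with IgG, a difference of 0.59 (2-sided exact permutation test, p = 0.0238, the smallest that 6 against 3 allow; adjusted over 5 comparisons p = 0.0595, which does not pass). This takes same-numbered hnRNP A2 libraries as separate samples. Paired by replicate number the ratio was higher with hnRNP A2 in 3 of 3 pairs (paired exact permutation test, p = 0.25, the smallest possible). The IgG ratio was also below that of each input library, with a difference of -0.45 (2-sided exact permutation test, p = 0.0238, adjusted p = 0.0595). This, too, did not pass. The gap to the nearest input library was narrow, since amyloid-β input replicate 2 had a log2 ratio of -0.30 and the highest IgG library, replicate 2, -0.32. This gap is smaller than the counting error of 0.0667 in that IgG library, so the order of these libraries is not resolved.

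The other comparisons of the ratio showed no difference beyond the spread. Between the hnRNP A2 IP and input it was 0.13 higher on the log2 scale (2-sided exact permutation test, p = 0.381, adjusted p = 0.635), higher in 2 of 6 pairs, and both of these were replicate 2. Between amyloid-β and control the difference was -0.04 in input and 0.002 in the hnRNP A2 IP (2-sided exact permutation test, p = 1.0 for both; 3 libraries against 3 allow no p below 0.1).

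**Figure D4:**
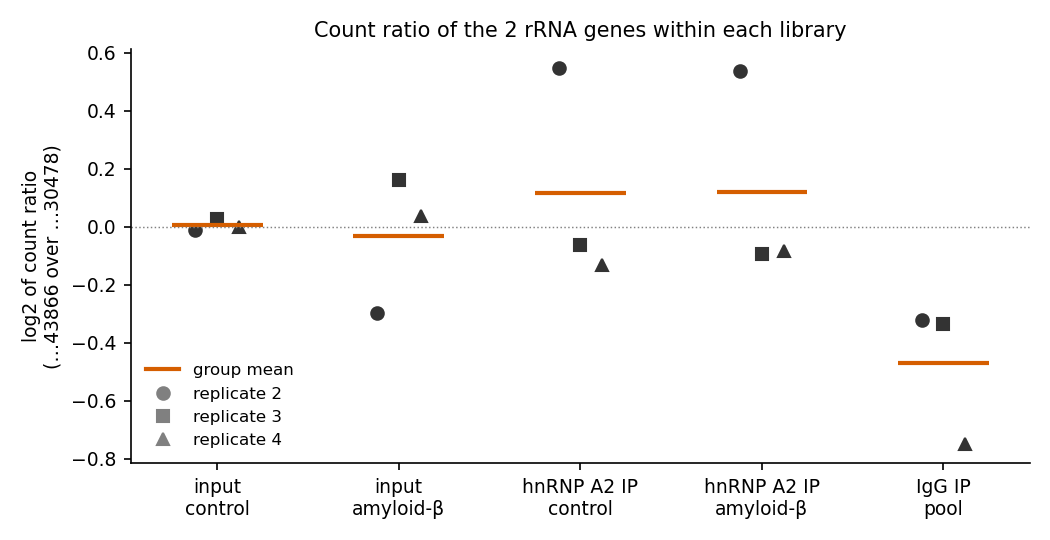
Log2 of the count of ENSRNOG00000043866 over that of ENSRNOG00000030478 in each of the 15 libraries, by group; point shape gives the replicate number and the bar the mean of 3 libraries. The IgG libraries lie at -0.32 or below and amyloid-β input replicate 2 at -0.30, a gap to IgG replicate 2 within counting error. Both hnRNP A2 libraries of replicate 2 lie highest, at 0.54 and 0.55.

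Amyloid-β asks whether the rRNAs changed in treated cells or in what the antibody recovered from them. In input, amyloid-β minus control was -12.8, -3.22 and -4.61 percentage points of the pair's share in replicates 2, 3 and 4, lower in 3 of 3. The mean difference was -6.89 percentage points, with an SD of 5.19 over the 3 pairs (2-sided exact permutation test, p = 0.4, adjusted over 6 comparisons p = 0.4), and without control input replicate 2 it was -2.02. In the hnRNP A2 IP it was 0.425, 0.0634 and 0.150 percentage points, higher in 3 of 3. There the mean difference was 0.213 percentage points (2-sided exact permutation test, p = 0.2, adjusted p = 0.4). Paired exact permutation tests gave p = 0.25 for both, the smallest that 3 pairs allow. The direction was thus the same in all pairs of each kind of library, and opposite between the kinds, while no test passed.

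Each gene followed this pattern by itself. On the log2 scale of shares, ENSRNOG00000030478 differed by -0.43 ± 0.11 (SD, n = 3 pairs) in input and by 0.19 ± 0.18 (SD, n = 3 pairs) in the hnRNP A2 IP. ENSRNOG00000043866 differed by -0.47 ± 0.32 and 0.20 ± 0.17 (SD, n = 3 pairs each). Within the 6 input libraries, the levels of the 2 genes went together, with a correlation of 0.98 over the log2 CPM. Within the 6 hnRNP A2 libraries it was 0.07. These libraries share replicate numbers, and the values are descriptions.

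**Figure D5:**
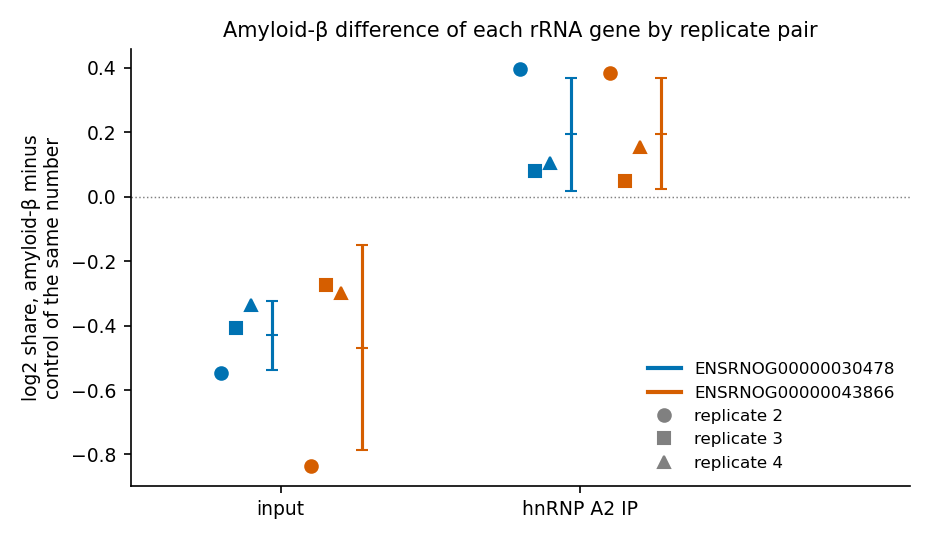
Log2 share of gene counts in the amyloid-β library minus that in the control library of the same replicate number, for each rRNA gene in input and in the hnRNP A2 IP; the error bars are the mean and SD of 3 pairs. All 6 points in input lie below 0 and all 6 in the hnRNP A2 IP above it.

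In the fits across all genes, neither rRNA gene passed for amyloid-β. In input the log2 difference was -0.67 (95% confidence interval -1.76 to 0.42) for ENSRNOG00000030478 and -0.74 (-1.77 to 0.30) for ENSRNOG00000043866, with an edgeR adjusted p of 0.954 for both. Without control input replicate 2 they were -0.33 and -0.41, and without amyloid-β input replicate 3 the former was -0.43. The background was 0% there, as 0 of 13793 genes were called by edgeR, and 188 had an unadjusted p under 0.05. Neither DESeq2 nor limma voom called any gene (0 each), and 335 and 71 genes had such a p. In the hnRNP A2 IP the log2 difference was 0.17 (95% confidence interval -0.40 to 0.74) for ENSRNOG00000030478 and 0.20 (-0.27 to 0.67) for ENSRNOG00000043866, with an edgeR adjusted p of 1.00 for both. The background was again 0%, with 0 of 15118 genes called by edgeR and 42 at an unadjusted p under 0.05. DESeq2 called 0, with 35 genes at such a p, and limma voom 0, with 42. A replicate block left the input count at 0 and gave 1 gene in the hnRNP A2 IP, which was no rRNA gene (edgeR). With the block the 95% confidence intervals in input were -1.11 to -0.12 for ENSRNOG00000030478 and -1.15 to -0.15 for ENSRNOG00000043866. In the hnRNP A2 IP they were 0.03 to 0.35 for both. These intervals, not adjusted for the genes tested, leave out 0, but neither gene passed after adjustment. With the block 1625 genes in input and 888 in the hnRNP A2 IP had an unadjusted p under 0.05. The input intervals do not exclude a decrease of 1 on the log2 scale.

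Abundant genes as a whole leaned the same way as the rRNA genes in input. Of the 91 other genes of at least 1000 CPM there, 64 had a negative log2 difference between amyloid-β and control, with a median of -0.27, and 2 were lower than both rRNA genes. Over all genes tested the median was -0.01. With library sizes alone it was 0.15, and the rRNA genes were at -0.45 and -0.52. In the hnRNP A2 IP, 37 of the 91 genes were negative, with a median of 0.03.

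The difference between the treatment effects in the hnRNP A2 IP and in input was tested as an interaction. It was 0.82 (SE 0.58) on the log2 scale for ENSRNOG00000030478 and 0.92 (SE 0.53) for ENSRNOG00000043866, with an edgeR adjusted p of 1.00 for both. Without control input replicate 2 it was 0.47 and 0.58. The background was 0%, with 0 of 15303 genes called by edgeR and 125 at an unadjusted p under 0.05. DESeq2 called 0, with 146 genes at such a p, and limma voom 0, with 113. With library sizes alone the median of all genes moved from -0.02 to -0.15 and the rRNA values were 0.63 and 0.73. With a replicate block the interaction was 0.79 for ENSRNOG00000030478 and 0.84 for ENSRNOG00000043866 (edgeR adjusted p = 0.969 for both). The 95% confidence intervals, not adjusted for the genes tested, were -0.22 to 1.79 and 0.009 to 1.67. The latter leaves out 0. With the block 0 genes were called and 279 had an unadjusted p under 0.05. The opposite directions of the rRNA shares thus did not pass a test of their difference.

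Other genes rose and fell with the rRNA genes across the libraries by correlation, which does not measure the size of a step. Among 8882 genes with at least 10 CPM in input on average, ENSRNOG00000056148 was most like the mean of the rRNA genes over the 15 libraries in log2 CPM (Pearson r = 0.99), followed by ENSRNOG00000020178 (r = 0.98). ENSRNOG00000056148 had 172 ± 16.5 CPM (SD, n = 6) in input, 54.9 ± 3.08 CPM (SD, n = 6) in the hnRNP A2 IP and 53.5 ± 8.26 CPM (SD, n = 3) in IgG. ENSRNOG00000020178 had 119 ± 18.8 CPM (SD, n = 6), 33.8 ± 2.99 CPM (SD, n = 6) and 37.3 ± 3.93 CPM (SD, n = 3). Their likeness lay in the step from input to the precipitates, which 350 genes shared to the extent of r over 0.9, while 318 had r under -0.9. Within the 6 input libraries alone the correlations were 0.63 and 0.57, and within the 6 hnRNP A2 libraries -0.30 and -0.55. The step of the rRNA genes was larger. ENSRNOG00000030478 had means of 137018 CPM in input, 6414 in the hnRNP A2 IP and 8113 in IgG. ENSRNOG00000043866 had means of 134416, 6906 and 5809 CPM.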

How the data were processed

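The deposited files hold raw counts, 1 whole number per gene identifier and library. The tools named, without a role, in the submitters' processing notes are HTSeq, DESeq2, STAR 2.7.1 and R 4.2.2. The sources used here do not give the build, the annotation or the strand setting. The 5 rows per file that name no gene were left out of shares, library sizes and tests, and they held 65.5% to 91.4% of a file's records. No table used here matched an identifier to a name, so the gene lists, markers and motifs planned by symbol or sequence were not analysed. The members and lists were chosen with earlier results of these data known.

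Fits across genes used edgeR 4.0.16 (R 4.3.3) with its default filter on low counts and TMM factors. The quasi-likelihood F test had no replicate term, and p-values were adjusted by Benjamini-Hochberg over all genes tested, with calls at 0.05. A standard error is the log2 difference divided by the square root of F. Single values were compared by 2-sided exact permutation tests (SciPy 1.17.1). Named genes other than the members are the 2 identifiers whose log2 CPM (prior count 2) correlated best with the members' mean, among those of at least 10 CPM in input. Other settings tried were limma voom (limma 3.58.1), DESeq2 1.42.0, DESeq2-type scaling factors in edgeR, library sizes alone, members left out of the scaling, no filter, all 15 libraries in 1 fit, a replicate block and each library left out.

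Replicate numbers come from the titles. Deviations of same-numbered libraries from their group means correlated at 0.34 to 0.58 between treatments in input, 0.53 to 0.79 in the hnRNP A2 IP, 0.12 to 0.25 between hnRNP A2 and IgG, and 0.15 to 0.54 between hnRNP A2 and input. The numbers were read as pairing these libraries, but not IgG with input, where values fell to -0.06. Between treatments, differently numbered libraries reached 0.07 in input and 0.26 in the hnRNP A2 IP, below all same-numbered values. For the amyloid-β hnRNP A2 IP they reached 0.28 with input and 0.14 with IgG. These exceed the lowest same-numbered values there, 0.15 and 0.13, so pairing of hnRNP A2 with input or IgG is less clear than between treatments.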

Additional observations from a re-analysis of the deposited data

Results flagged for a closer look

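The rRNA pair's share of gene counts drew attention because amyloid-β and control differed in opposite directions in the 2 kinds of library. Amyloid-β minus control was -6.89 percentage points in input and 0.213 percentage points in the hnRNP A2 IP, each with the same sign in 3 of 3 pairs of replicate numbers. The difference of the shares between the kinds was not tested. An interaction for each gene in edgeR, on scaled counts and without pairing, did not pass (edgeR adjusted p = 1.00 for both). With a replicate block it did not pass either (edgeR adjusted p = 0.969 for both).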

How the results depend on the processing

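No call on an rRNA gene, its share or its ratio changed under any alternative run. None had passed to begin with in the tests of amyloid-β, the interaction, hnRNP A2 against IgG and the ratio. For the shares and the ratio between treatments this was fixed beforehand. Their exact permutation tests allow no p below 0.1, or below 0.25 when paired, so no alternative could have passed. The ratio tests with IgG already had the smallest p possible. With the replicate block the amyloid-β difference in input was -0.61 and -0.65 on the log2 scale (edgeR adjusted p = 0.312 and 0.280) and in the hnRNP A2 IP 0.19 for both genes (edgeR adjusted p = 0.809). Over all alternatives the lowest adjusted p of an rRNA gene for hnRNP A2 against IgG was 0.108 (edgeR). For the ratio in that comparison it was 0.0595 (2-sided exact permutation test). Leaving out single libraries turned the sign of some differences. It gave -0.14 to 0.0936 for the log2 ratio between treatments in input, -0.21 to 0.22 in the hnRNP A2 IP, -0.00038 to 0.33 for the amyloid-β difference of ENSRNOG00000030478 in the hnRNP A2 IP, and -0.0140 to 0.59 for ENSRNOG00000043866 against IgG. The log2 share of the pair with hnRNP A2 over IgG also turned, from -0.35 without IgG replicate 3 to 0.39 without replicate 2. Signs held for ENSRNOG00000030478 against IgG, at -0.64 to -0.13, for amyloid-β in input, at -0.98 to -0.33 and -1.04 to -0.41, and for the interaction, at 0.47 to 1.14 and 0.58 to 1.23. With medians in place of means the log2 ratio differed by -0.0851 between hnRNP A2 and input, 0.26 between hnRNP A2 and IgG and 0.0382 between treatments in input. Out of all records, the log2 difference of the pair's share was -2.96 for hnRNP A2 over input, against -3.66 out of gene counts, and 0.97 for hnRNP A2 over IgG, against 0.07. The rRNA counts were the same on both bases and only the denominator differed. Why the part of records that name no gene differed between kinds of library was not tested. The number of genes called against IgG was 2084, 1097 with voom, 5392 with the block, and 21 to 2428 with single libraries left out. For amyloid-β in the hnRNP A2 IP it was 0, and 1 with the block. The depth of IgG replicate 2 and the 3 libraries per group limit these values.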
